A study of Mus musculus with 6 samples.

Results

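The genes described here serve the breakdown of glucose and the handling of glycerol: Gapdh, Pgk1 and Ldhal6b of glycolysis and its lactate step, G6pd2 of the pentose phosphate pathway, and Gk of glycerol metabolism. The rule took them by probe name and known role and used no measured value. Gapdh, Ldhal6b, G6pd2 and Gk each have 1 gene probe that carries a RefSeq accession, and Gapdh and Pgk1 also have mouse control spots for the 3' and 5' ends of their transcripts. These 5 genes are among 16 that the scanner files name, and they cover 8 probes and 120 of the 62939 spots on each array. The sample titles name lncRNA, and of the 60915 probes other than controls only 15 carry a RefSeq accession matched to a gene. Each gene probe is printed on 20 spots and each end control on 10.

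The arrays measured RNA of C2C12, a mouse myoblast cell line from skeletal muscle, with 3 arrays of proliferating myoblasts and 3 of myotubes, the fused muscle cells they form. Per the labels, the growth medium of the myoblasts held fetal bovine serum at 10%. Cells meant to become myotubes received horse serum at 2% once they covered 80 to 90% of the dish. Both groups come from 1 cell line, in media that differ in serum, and the medium change and the differentiation cannot be told apart. None of the 6 myoblast or 13 myotube marker genes listed for this work, nor of the 4 fibroblast and 3 adipocyte markers, has a named probe, so the labelled cell states could not be checked against them.

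Glycolysis splits glucose to pyruvate. Gapdh, glyceraldehyde-3-phosphate dehydrogenase, oxidises its triose phosphate and yields NADH, and Pgk1, phosphoglycerate kinase, then makes ATP from the product. Lactate dehydrogenase turns pyruvate into lactate and gives back NAD+, which lets working muscle run glycolysis with little oxygen. Glucose-6-phosphate dehydrogenase opens the pentose phosphate pathway, which supplies NADPH and the ribose of nucleotides and so serves dividing cells. Glycerol kinase, encoded by Gk, phosphorylates glycerol so that it can enter lipid synthesis or glycolysis. Of the lists for these routes, 3 of 24 glycolysis genes, 1 of 9 pentose phosphate genes and 1 of 10 glycerol genes had a named probe or end control, and those are the 5 genes described.

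All 5 genes matched a start site in a RefSeq table of build GRCm38.p6, and the 250 bases before that start were searched on both strands. The windows of G6pd2 and Ldhal6b are shown because these genes had the largest decreases, and that of Pgk1 because it is one of the GC-rich windows of this group. Capitals mark the E-box letters CANNTG, the class of site that muscle bHLH factors bind, in G6pd2 (chr5:61808593-61808842, plus strand) and in Ldhal6b (chr17:5418768-5419017, minus strand). In Pgk1 (chrX:106186850-106187099, plus strand) they mark the GC box GGGCGG, read on the other strand.
G6pd2: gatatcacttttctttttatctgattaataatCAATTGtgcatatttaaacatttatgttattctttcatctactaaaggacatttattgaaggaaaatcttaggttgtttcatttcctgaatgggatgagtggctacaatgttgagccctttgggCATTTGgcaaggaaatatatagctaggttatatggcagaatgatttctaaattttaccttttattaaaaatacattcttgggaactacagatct
Ldhal6b: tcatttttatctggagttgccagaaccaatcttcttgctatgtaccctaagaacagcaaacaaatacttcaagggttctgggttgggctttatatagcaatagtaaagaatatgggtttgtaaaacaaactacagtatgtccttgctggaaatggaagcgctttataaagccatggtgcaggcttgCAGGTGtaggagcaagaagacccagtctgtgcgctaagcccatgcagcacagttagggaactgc
Pgk1: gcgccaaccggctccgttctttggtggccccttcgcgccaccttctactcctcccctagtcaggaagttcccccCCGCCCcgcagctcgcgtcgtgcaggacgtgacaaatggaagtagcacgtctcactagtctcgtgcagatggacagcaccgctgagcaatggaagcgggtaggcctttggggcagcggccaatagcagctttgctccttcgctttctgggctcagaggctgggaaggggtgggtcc

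The window of G6pd2 was 30% G and C, and only 1.47% of the 32851 windows of that table had less. That of Ldhal6b was at 43.6%, Gapdh at 55.6%, Pgk1 at 62.8% and Gk at 67.2%. An E-box was present in G6pd2 (2 matches), Ldhal6b (1), Pgk1 (2) and Gk (1), and in 66.2% of all windows of this length. The GC box stood once in Pgk1 and 3 times in Gk, against 32.7% of windows with at least 1. The TATA letters TATAAA stood in Ldhal6b alone of the 5 (3 matches, of which 2 overlap), against 12.4% of windows. The letters ACGTG, the core bound by hypoxia-inducible factors that drive glycolytic genes, stood 2 times in Pgk1, at separate places. In Gk the 2 matches are 1 stretch, the E-box, read on both strands. At least 1 match stood in 16.6% of windows. CCAAT stood in Pgk1 and Ldhal6b, against 33.8%. No match to these 5 motifs was found in the Gapdh window. These matches describe letters and not sites in use.

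**Figure D1:**
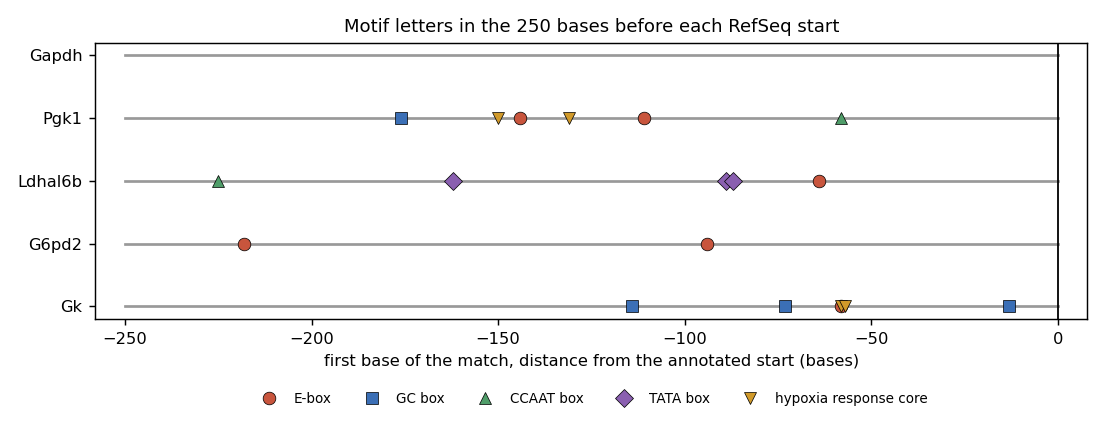
Matches to 5 motifs (E-box, GC box, CCAAT box, TATA box and hypoxia response core), on either strand, in the 250 bases before the RefSeq start of each gene. The horizontal axis is the distance in bases of the first base of the match from the annotated start, each row is 1 gene and each symbol 1 match. Pgk1 and Gk carry matches to the GC box and the hypoxia core, while G6pd2 carries only 2 E-box matches and Gapdh none.

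G6pd2 is an intronless copy of G6pdx, the X-linked gene for glucose-6-phosphate dehydrogenase. From 10 bases before its start it shares 27 bases without a mismatch with the window around the start of G6pdx, and no other gene's window shared even 20 bases with it.
G6pd2 and G6pdx: CTACAGATCTGTGAACGTGTTTGGCAG

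In myotubes G6pd2 fell most (log2 change −1.39), followed by the dim Ldhal6b (−0.81), which entered the test through its myoblast arrays alone. Gk (−0.34) passed the threshold narrowly and lost it in 7 of 16 alternatives. The Gapdh change was larger (−0.41) but missed it, so the threshold does not set Gk apart from Gapdh. The end controls of Gapdh and Pgk1 shifted by amounts that missed the threshold or could not be tested to it. Levels are log2 of the processed signal minus the 75th percentile of the same array, so 0 is that percentile. A level compares arrays for 1 probe and not probes with each other. Myotubes were compared with myoblasts in limma over the 35487 probes that exceeded background clearly on 3 or more of the 6 arrays, with Benjamini-Hochberg adjusted p under 0.05 as the threshold. All 4 gene probes were among them. In that comparison 50.4% of probes passed, 26.9% lower and 23.4% higher in myotubes, so a decrease past the threshold was common on this array. These shares, those below and the 75th percentile come almost wholly from probes without a named gene. All named gene probes but that of the protein folding gene Hsp90ab1 (0.36) were lower in myotubes on this scale, whether or not they passed. A decrease is therefore not particular to the genes described.

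The signal of Gapdh was 232689, 229307 and 229752 intensity units in the myoblasts, in order of replicate number, and 240607, 189391 and 206832 in the myotubes. Its brightest spot used reached 34.9% of the scanner's saturation value, and no spot on any array was flagged as saturated. On the scaled axis the Gapdh levels were 9.32, 9.25 and 9.26 in myoblasts and 9.12, 8.96 and 8.52 in myotubes. All myotube arrays lay below all myoblast arrays, as for 33.8% of the probes with a value on every array (27.8% had all myotubes above), and myotube replicate 3 lay lowest. The 75th percentile that was subtracted was itself 364, 376 and 374 in myoblasts but 431, 382 and 563 in myotubes. Myoblasts averaged 9.28 ± 0.04 and myotubes 8.87 ± 0.31 (SD, n = 3 each). The change of −0.41 (SE 0.16, 95% interval −0.79 to −0.03, limma adjusted p = 0.0717) did not pass, and under quantile normalization it was 0.02. It passed without myotube replicate 1 (−0.54, limma adjusted p = 0.0160) and with normexp background correction (−0.39, limma adjusted p = 0.0432). With scan as a block it was −0.15, but that block sets only myotube replicate 1 against the myoblasts. Without myotube replicate 3 it was −0.24 and did not pass.

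The control spots for the ends of Gapdh gave a like picture. The 3' spots stood at 8.999, 8.93 and 8.97 in myoblasts and at 8.82, 8.56 and 8.18 in myotubes. The 5' spots stood at 7.89, 7.88 and 7.87 in myoblasts and at 7.78, 7.75 and 7.46 in myotubes. At both ends every myotube array was below every myoblast array, and myotube replicate 3 was lowest. The 3' spots differed by −0.45 and the 5' spots by −0.22, each with p = 0.1 in an exact permutation test (two-sided, n = 3 each), which is as small as 3 against 3 allows. Such a test cannot reach 0.05. Within the 1 scan that holds both groups, which sets myotube replicate 1 against the myoblasts, they were smaller, at −0.15 and −0.10. Without myotube replicate 3 they were −0.28 and −0.11. Quantile normalization gave −0.03 and 0.12, so the sign at the 5' end turned. With the 4 mouse end controls added to the fit over all probes, neither Gapdh end passed (limma adjusted p = 0.0594 for the 3' and 0.161 for the 5' spots).

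The 3 probes of Gapdh were also set against each other. Within each array, the gene probe minus the 3' spots was 0.31 ± 0.01 for myoblasts and 0.35 ± 0.05 for myotubes (SD, n = 3 each), with overlapping ranges (exact permutation test, two-sided p = 0.3). The gene probe minus the 5' spots was 1.40 ± 0.03 for myoblasts and 1.204 ± 0.14 for myotubes, with no overlap (two-sided p = 0.1, exact permutation test). That difference between groups was −0.19, but −0.05 within the 1 scan that holds both groups and −0.12 without myotube replicate 3. The difference for the 3' spots was 0.04, and it was 0.06 without myotube replicate 1 and 0.01 without myotube replicate 2. An exact test of 3 against 3 arrays cannot fall below p = 0.1, so it cannot decide whether the 3 probes changed unequally. Such differences within an array do not depend on the percentile subtracted.

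Pgk1, which carries out the step after Gapdh, was measured by its end controls alone. Its 3' spots had levels of 8.40, 8.45 and 8.43 in myoblasts and 8.30, 8.35 and 8.02 in myotubes. Its 5' spots gave 546, 705 and 621 intensity units in myoblasts and 654, 916 and 1240 in myotubes, and its 3' spots 122922 to 146557 over all arrays. On the scaled axis the 5' levels were 0.58, 0.90 and 0.73 in myoblasts and 0.60, 1.26 and 1.14 in myotubes. The 3' spots were lower on all myotube arrays than on any myoblast array, while at the 5' end myotube replicate 1 lay among the myoblasts and the other two lay above them. The 3' difference was −0.20 (exact permutation test, two-sided p = 0.1, n = 3 each) and turned to 0.18 under quantile normalization. Without myotube replicate 3 it was −0.10, and within the shared scan −0.13. The 5' difference was 0.26 (exact permutation test, two-sided p = 0.3). It was 0.46 without myotube replicate 1, 0.13 without myotube replicate 2 and −0.14 within the shared scan. Added to the fit over all probes, neither end passed (limma adjusted p = 0.186 for the 3' and 0.287 for the 5' spots).

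**Figure D2:**
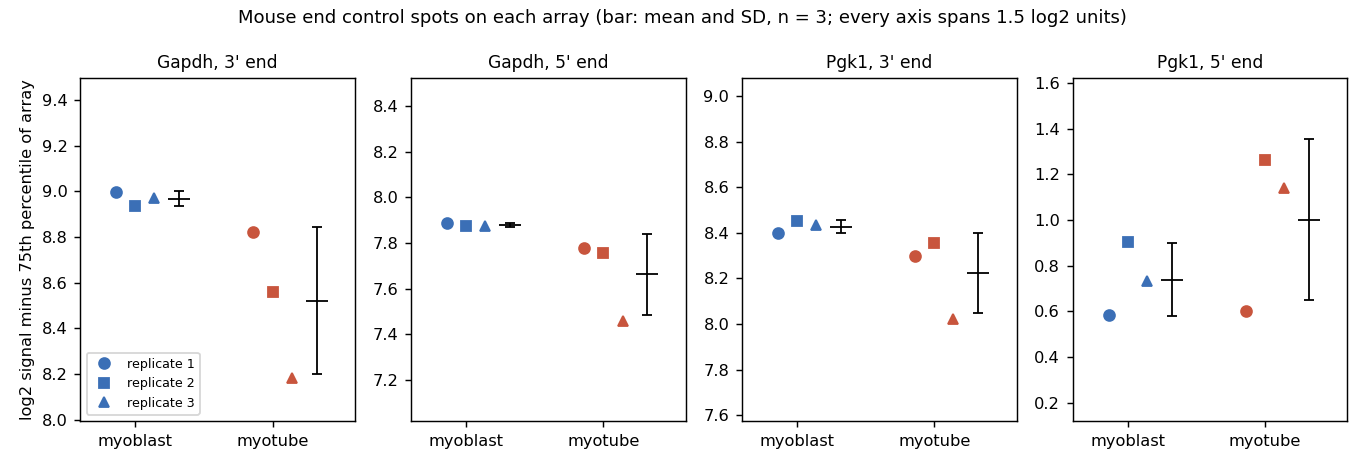
Level of the mouse control spots for the 3' and 5' ends of Gapdh and Pgk1 on each array, as log2 signal minus the array's 75th percentile. Points are arrays with 1 symbol per replicate number, and bars give the mean and SD of 3 arrays. The 3 panels other than the Pgk1 5' end show all myotube arrays below the myoblasts on this scale, but under quantile normalization the differences turned to 0.12 for the Gapdh 5' end and 0.18 for the Pgk1 3' end.

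The difference between the ends of a transcript was also taken on each array. The 3' minus 5' gap of Gapdh was 1.11, 1.06 and 1.096 in myoblasts, 1.05 on myotube replicate 1 and 0.80 and 0.72 on replicates 2 and 3. That of Pgk1 was 7.81, 7.55 and 7.70 in myoblasts and 7.70, 7.09 and 6.89 in myotubes. Replicate 1 was near or within the myoblast range for both genes, and replicates 2 and 3 were below it for both. The gap of Gapdh differed by −0.23 (exact permutation test, two-sided p = 0.1) and that of Pgk1 by −0.46 (two-sided p = 0.2, exact permutation test, n = 3 each). The 3 myoblast arrays and myotube replicate 1 were read in 1 scan and the others had scans of their own, so for these 2 arrays scan and cell state cannot be told apart. Without myotube replicate 1 the Pgk1 difference was −0.70, and without myotube replicate 3 it was −0.30. Within the shared scan the gaps differed by −0.04 for Gapdh and 0.01 for Pgk1.

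**Figure D3:**
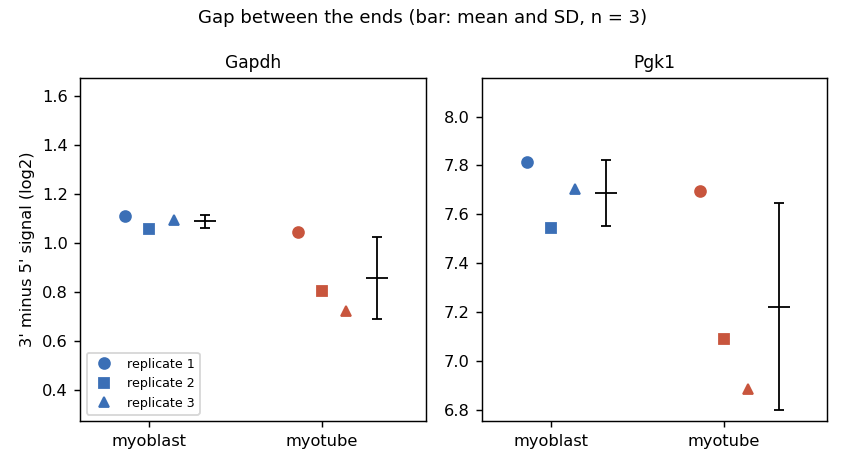
Difference between the 3' and 5' control spots of Gapdh and of Pgk1 on each array, in log2 units. Points are arrays, bars give the mean and SD of 3 arrays, and the vertical axes have different origins. For both genes myotube replicates 2 and 3 lie below all other arrays, with Gapdh gaps of 0.80 and 0.72 and Pgk1 gaps of 7.09 and 6.89.

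Ldhal6b encodes a relative of the lactate dehydrogenase A subunit. Its signal was dim, at 51.3, 45.4 and 42.7 intensity units in myoblasts and 35.8, 24.6 and 37.5 in myotubes. On the scaled axis its levels were −2.83, −3.05 and −3.13 in myoblasts and −3.59, −3.95 and −3.91 in myotubes. The groups did not overlap, and 33.8% of the probes with a value on every array likewise had all myotubes below all myoblasts. Of the spots used, 19 of 19, 17 of 17 and 12 of 17 were well above background in myoblasts, against 5 of 19, 2 of 16 and 5 of 18 in myotubes. A probe counted as well above background on an array when most of its spots were. Ldhal6b met this in no myotube sample and entered the test through its myoblast arrays alone. Each dimmer myotube level was also raised to the dimmest signal that counted as above background on its array. The Ldhal6b mean was then still 1.58-fold lower in myotubes. This is a lower bound of the measured fold on this scale alone and not of the decrease itself. It takes no account of the spread between arrays. The measured change was −0.81 (SE 0.14), and 12.5% of tested probes had a change as low or lower. Its limma adjusted p was 0.00302 among the filtered probes. Since the filter took Ldhal6b in through the group where it was high, the fit over all probes without the filter is given beside it (limma adjusted p = 0.0152). A scan block, which sets only myotube replicate 1 against the myoblasts, gave −0.59. Normexp background correction gave −0.37 (limma adjusted p = 0.0249), and both sizes are below that bound.

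The SD of the Ldhal6b spots within an array was 0.12 to 0.15 in myoblasts and 0.43, 0.21 and 0.23 in myotubes on the log2 scale, against 0.02 to 0.07 for the Gapdh spots used. Spots of 1 array share its RNA and are not replicates of a cell state.

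G6pd2 showed the largest change of the 5 genes and the tightest myoblast values. Its signal was 955, 990 and 978 intensity units in myoblasts and 376, 416 and 591 in myotubes. The levels were 1.39, 1.40 and 1.39 in myoblasts and −0.20, 0.12 and 0.07 in myotubes. Every myotube array lay at least 1.26 below every myoblast array, a gap far wider than the spread within either group. The mean fell from 1.39 ± 0.005 to −0.0007 ± 0.17 (SD, n = 3 each), a 2.62-fold decrease (−1.39 on the log2 scale, SE 0.11, limma adjusted p = 9.16e-05). Of all tested probes, 4.69% had a change as low or lower, and 17.6% passed with at least a 2-fold change in either direction. G6pd2 passed under all 16 alternatives run, with changes from −1.59 with scan as a block to −1.25 with normexp. The scan block sets only myotube replicate 1 against the myoblasts, so its −1.59 rests on 1 myotube array. The gene probe is assigned to G6pd2 by its accession. G6pdx, its parent gene, has no named probe on this array, and whether the probe also binds G6pdx RNA was not tested, so which of the 2 transcripts gave the signal is uncertain.

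Gk, the glycerol kinase gene, fell slightly. Its signal was 73.0, 74.1 and 74.95 intensity units in myoblasts and 64.9, 55.6 and 99.7 in myotubes. Scaled, its levels were −2.32, −2.34 and −2.32 in myoblasts and −2.73, −2.78 and −2.50 in myotubes. The probe was well above background on all 6 arrays. In intensity units myotube replicate 3 was the brightest array for Gk, and after scaling it was still below every myoblast array but closest to them. The change was −0.34 (SE 0.11, limma adjusted p = 0.0359), a 1.27-fold decrease, and 32.1% of tested probes had a change as low or lower. This call was narrow. Leaving out any 1 of the myoblast arrays ended it (limma adjusted p = 0.107, 0.101 and 0.112 without replicates 1, 2 and 3), and so did leaving out myotube replicate 2 (0.0940). It was also lost without the filter on dim probes (limma adjusted p = 0.115) and with trended, robust variance (0.0599). The scan block, which sets only myotube replicate 1 against the myoblasts, gave −0.40. With normexp the change was −0.22 (limma adjusted p = 0.0394), which moved it by over 1.5 times.

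**Figure D4:**
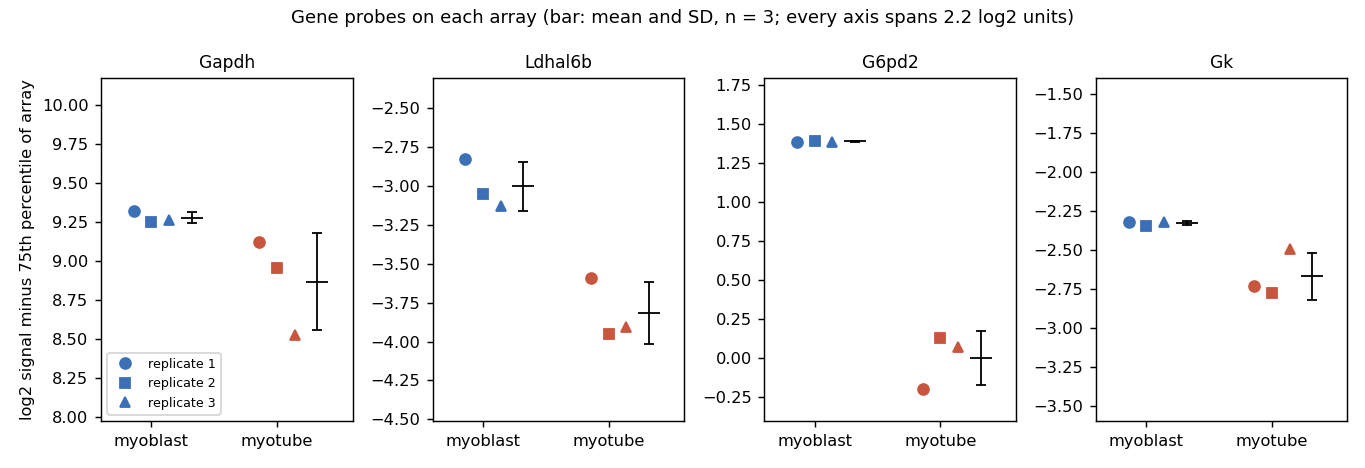
Level of the gene probes for Gapdh, Ldhal6b, G6pd2 and Gk on each array, as log2 signal minus the array's 75th percentile. Points are arrays with 1 symbol per replicate number, bars give the mean and SD of 3 arrays, and all axes span the same range. G6pd2 drops from 1.39 to about 0, whereas the Gapdh difference of −0.41 did not pass and was 0.02 under quantile normalization.

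**Figure D5:**
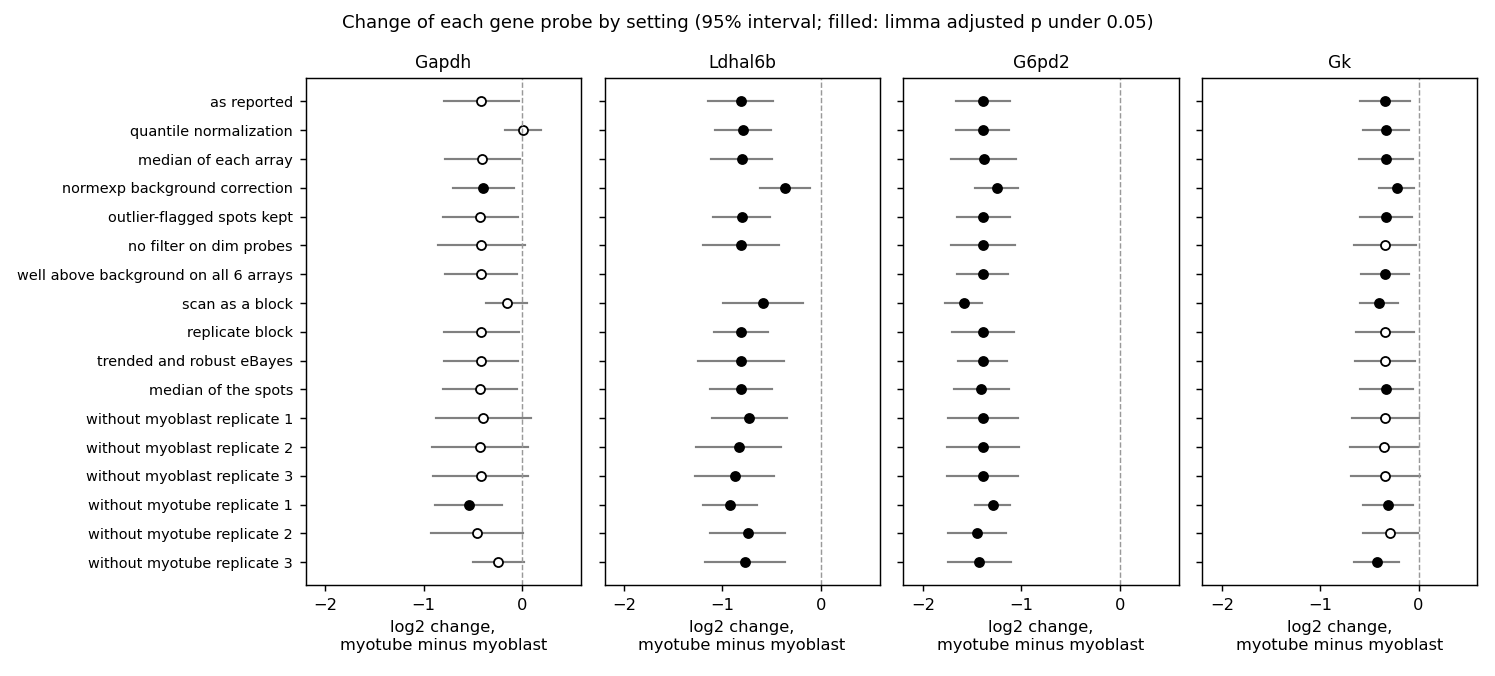
Change of each gene probe (log2, myotube minus myoblast, horizontal axis) as reported and under each alternative run (rows), with its 95% interval from limma. Filled points passed an adjusted p of 0.05. The row with scan as a block sets only myotube replicate 1 against the myoblasts. Ldhal6b entered each of its rows, except that without the dim filter, through its myoblast arrays alone. G6pd2 and Ldhal6b are filled in each row that has a value (Ldhal6b has none where a probe had to be well above background on all 6 arrays), Gk is open in 7 of 16 alternatives, and Gapdh is filled in 2 and at 0.02 under quantile normalization.

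The pattern of each gene probe over the 6 arrays was set beside those of the other 14 named gene probes, by the root mean square difference of levels centred on each probe's own mean. Nearest to Gapdh were the cyclophilin gene Ppia (0.08 log2 units) and B2m, which encodes beta-2-microglobulin (0.09). Nearest to Ldhal6b were Rpl13a, of the large ribosomal subunit, and the alpha-tubulin gene Tuba1b, both at 0.17. Nearest to Gk were the beta-glucuronidase gene Gusb (0.16) and Nono, which encodes a nuclear RNA-binding protein (0.18). Closest to G6pd2 were Ldhal6b at 0.37 and Actb, beta-actin, at 0.39. The measure is not scaled for the size of a change, so the large decrease of G6pd2 by itself sets it far from the others. These distances describe 6 arrays of 2 cell states and carry no test. Of the neighbours outside this group, Actb (−1.19), Rpl13a (−0.64) and Tuba1b (−0.58) also passed as lower in myotubes. Ppia, B2m, Gusb and Nono were lower without passing.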

How the data were processed

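RNA of 3 myoblast and 3 myotube arrays was depleted of ribosomal RNA, amplified with random primers and labelled with Cy3, per the labels' protocols. The deposited intensity values were read and background-subtracted with Agilent Feature Extraction 11.0.1.1, per the file headers, on a design that refers to mm9. The deposited series table holds none of these genes' probes and was not used. The replicates were described as independent experiments.

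Processed intensity was taken as log2, outlier-flagged spots were left out, spots of a probe were averaged (control spots and 15 probes named as negative controls left out) and each array's 75th percentile was subtracted. Groups were compared in R 4.3.3 by limma 3.58.1 (lmFit, then eBayes) on 35487 of 60915 probes. The step was also run on simulated data with equal spread in both groups. The gene probes here spread more in myotubes, so that run does not vouch for their p-values. Adjusted p-values for gene probes come from limma. End controls were compared over arrays in 8 exact permutation tests, written in Python 3.11.15 (numpy 2.4.6). Other scaling, background correction, filters, scan or replicate blocks and left-out arrays were tried. The files hold no mean spot signal, so normexp (offset 50) used the median. The number of arrays limits the precision.

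Named are all 5 genes, for each gene probe the 2 most like of the other named probes, and Hsp90ab1 as the only named gene probe that was higher. The rule for the genes uses names alone, but the genes and lists were chosen with earlier results of these data known.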

Additional observations from a re-analysis of the deposited data

Results flagged for a closer look

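The array also carries human and rat control spots for the ends of Gapdh and Pgk1, which the comparisons above do not use. All 8 of these probes gave signal well above background on all 6 arrays of mouse RNA. The human Gapdh 5' spots were at 3.61 ± 0.05 for myoblasts and 3.81 ± 0.34 for myotubes (SD, n = 3 each), with 3.43 on myotube replicate 1 and 4.09 and 3.91 on replicates 2 and 3. The human Gapdh 3' spots were at 8.14 ± 0.02 and 7.89 ± 0.17. The human 3' minus 5' gap of Gapdh was 4.54 ± 0.07 in myoblasts and 4.57, 3.88 and 3.79 in myotubes, and that of Pgk1 was 8.63 ± 0.14 and 8.65, 8.04 and 7.87. The rat gap of Gapdh was 0.03 ± 0.10 and −0.04, −0.49 and −0.44. Thus myotube replicates 2 and 3 had smaller gaps than the other arrays on these probes too, while the rat Pgk1 gap did not follow, at −2.47 ± 0.20 in myoblasts and −2.47, −3.37 and −2.41 in myotubes. The same RNA gave all these values, so they are no independent evidence.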

How the results depend on the processing

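The direction and the side of the threshold were kept in 16 of 16 alternatives for G6pd2, 15 of 15 for Ldhal6b (no value with probes well above background on all 6 arrays), 13 of 16 for Gapdh and 9 of 16 for Gk. For Ldhal6b every alternative but the fit without the dim filter took the probe in through its myoblast arrays, where it was high. Its count is thus no support for the decrease. The scan block in each count rests on myotube replicate 1 alone. The end controls have no such count, since an exact test of these arrays cannot pass. Quantile normalization turned the Gapdh probe to 0.0159, the Gapdh 5' spots to 0.12 and the Pgk1 3' spots to 0.18. Within the 1 scan holding both groups, the Pgk1 5' spots were at −0.14, the Pgk1 gap at 0.00769 and the Gapdh probe minus its 3' spots at −0.00815. The causes were not tested. The Gapdh probe passed with normexp (−0.39) and Gk missed the threshold without the dim filter or with trended, robust variance (−0.34 in both).

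Leaving out 1 array at a time gave −0.54 to −0.24 for Gapdh, −0.43 to −0.29 for Gk, −1.45 to −1.29 for G6pd2 and −0.93 to −0.73 for Ldhal6b. It gave −0.60 to −0.28 for the Gapdh 3' spots, −0.27 to −0.11 for its 5' spots, −0.27 to −0.10 for the Pgk1 3' spots, 0.13 to 0.46 for its 5' spots, −0.32 to −0.16 for the Gapdh gap and −0.70 to −0.30 for the Pgk1 gap. The count of changed probes was 13566 to 22931, against 17880. The replicate numbers did not pair the arrays: deviations of same-numbered arrays correlated at −0.15, −0.00 and −0.09. With a replicate block 16538 probes passed and Gk missed the threshold (−0.34, limma adjusted p = 0.0645), while G6pd2 and Ldhal6b passed and Gapdh did not. Dim signal over background limits Ldhal6b. Gk was also dim, though well above background on all 6 arrays, and normexp moved its change from −0.34 to −0.22. The Ldhal6b fold is given with a bound that holds on 1 scale alone and leaves out the spread between arrays. Normexp and the scan block gave changes below that bound, so it secures no smallest decrease.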
